A study of Mus musculus with 4 samples.

Results

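The group called T-box genes of the heart fields holds Tbx1, Tbx2, Tbx3, Tbx4, Tbx5, Tbx15, Tbx18 and Tbx20. These are 8 of the 20701 gene symbols in the deposited transcript table. The label is used for all 8, although some are best known from other tissues. They were chosen by name, and for each symbol the transcript entry with the highest summed read count over the 4 libraries was kept. RNA-Seq had been performed on cardiac progenitor cells made from mouse E14 Tg(Nkx2-5-EmGFP) embryonic stem cells, which carry a green fluorescent reporter of the cardiac transcription factor gene Nkx2-5. The reporter is in both groups, and reporter-positive cells were sorted on day 5 of differentiation. The control group held 2 libraries from different control clones, and the Isl1_KO group held 2 libraries from different Isl1-/- clones, obtained with CRISPR/Cas9 and a pair of guide RNAs. Each library therefore stands for 1 clone of 1 stem cell line differentiated in culture. The comparison asks how the T-box genes of these cells depend on Isl1, a homeodomain protein that marks second heart field progenitors.

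T-box factors bind DNA through a conserved domain, the T-box, which is named after the founding gene T (Brachyury). Tbx5 and Tbx20 are best known as activators of heart muscle genes that work with Nkx2-5 and GATA factors, and Tbx5 marks the progenitors of the left ventricle, the atria and the conduction system. Tbx2 and Tbx3 are repressors that keep the atrioventricular canal and the nodes from turning into chamber muscle. Tbx1 acts in the second heart field and the pharyngeal arches, Tbx18 in the sinus horns and the epicardium, Tbx4 in the hindlimb, the lung mesenchyme and the allantois, and Tbx15 in the dermis and the skeleton of the limb.

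With 1 transcript per gene, a library held between 8821517 and 13186109 counts. Isl1 had 309 and 326 counts in control libraries, against 17 and 24 in Isl1_KO, and the counts of Nkx2-5 were 186 and 181 against 62 and 50. Levels are given as counts-per-million (CPM) scaled by library size when a gene is compared between groups, and as the deposited RPKM (a read count divided by transcript length and library size) when genes are compared with each other. The quasi-likelihood test of edgeR, with adjusted p held under 0.05, called 2.45% of 12715 genes, 27 to 29 genes without a control library and 6350 or 4176 without Isl1_KO replicate 1 or 2. The markers of cardiac progenitors were present in control, and 9 of the 10 listed ones passed the filter on low counts. Of these 9, 5 were lower in Isl1_KO and passed the test, among them the edited gene Isl1 and the reporter gene Nkx2-5. In all, 7 of the 9 had log2 fold changes below 0. Kdr (0.11) and Fgf10 (0.83) were above 0, and neither passed. Mesp1 was too low to test, and its level was 0.45 and 0.66 CPM in control against 0.77 and 3.47 CPM in Isl1_KO. The 9 cardiomyocyte markers were all lower and all passed, with a summed level of 553 and 554 RPKM in control and of 27.2 to 48.1 RPKM in Isl1_KO. The Isl1_KO libraries also differed from each other. Over the genes tested, the chi-square of their counts per degree of freedom was 18.6, against 1.13 for the control pair, which thus differed little more than counting error. Summed fibroblast markers stood at 301 and 295 RPKM in control, 213 in Isl1_KO replicate 1 and 92.1 in replicate 2. Summed blood markers stood at 374 and 383, 212 and 75.5 RPKM, but this sum is carried by the embryonic globin genes Hbb-bh1 and Hba-x, and the other 5 of the 7 tested blood markers had positive log2 fold changes, from 0.11 for Klf1 to 0.93 for Tal1. Of these markers, 1 of the 7 blood markers tested (Runx1, higher) and 1 of the 10 fibroblast markers tested (Prrx1, lower) passed, and no listed marker of either type was at 0 in all libraries. DESeq2 called Tal1 and Runx1 among the blood markers and Dcn and Prrx1 among the fibroblast markers. None of the markers tested of endothelium (8), endoderm (7), neural ectoderm (3) and pluripotent cells (5) passed in edgeR, with 3, 1, 1 and 0 at an unadjusted p under 0.05 and 2, 1, 0 and 0 called by DESeq2. Their sums ranged over the 4 libraries from 29.7 to 40.9, 9.62 to 21.3, 5.50 to 11.5 and 7.97 to 21.2 RPKM. Within the pluripotent sum, Tdgf1 stood at 11.6 and 11.9 RPKM in control and at 0.97 and 6.32 in Isl1_KO. Pou5f1 (2.28 and 2.48 against 2.50 and 6.41 RPKM) and Nanog (0.49 and 0.62 against 0.51 and 1.27) were highest in Isl1_KO replicate 2. Of the 5 tested pluripotent markers, 3 had log2 fold changes below 0.

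RefSeq promoter windows on GRCm38.p6 were matched for 4 of the 8 genes, Tbx1, Tbx4, Tbx18 and Tbx20. The 250 bases before the gene start of Tbx20 and Tbx4, both at a lower level in each Isl1_KO library than in control, and of Tbx18, nearly silent in both groups, are shown to place what was searched for. Capitals mark a match.
Tbx20 (chr9:24774304-24774553, minus strand): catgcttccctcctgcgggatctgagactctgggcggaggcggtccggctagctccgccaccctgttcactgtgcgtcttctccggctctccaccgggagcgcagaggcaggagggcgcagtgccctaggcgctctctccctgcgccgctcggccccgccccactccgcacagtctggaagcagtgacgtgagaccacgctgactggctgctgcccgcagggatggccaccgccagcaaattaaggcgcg
Tbx4 (chr11:85896515-85896764, plus strand): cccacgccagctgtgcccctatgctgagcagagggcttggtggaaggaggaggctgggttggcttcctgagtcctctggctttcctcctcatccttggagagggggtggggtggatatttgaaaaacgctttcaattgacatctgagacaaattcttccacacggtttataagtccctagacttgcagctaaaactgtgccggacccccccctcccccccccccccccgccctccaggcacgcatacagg
Tbx18 (chr9:87731261-87731510, minus strand): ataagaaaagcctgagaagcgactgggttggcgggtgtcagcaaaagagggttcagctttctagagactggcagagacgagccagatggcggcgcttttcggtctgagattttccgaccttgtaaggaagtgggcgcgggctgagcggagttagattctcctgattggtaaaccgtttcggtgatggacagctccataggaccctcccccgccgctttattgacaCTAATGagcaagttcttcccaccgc
Both strands were searched for a T-box site (GGTGTGA), an Isl1 site (CTAATG), an Nkx2-5 site (TNAAGTG) and a GATA site (AGATAA). Among the 5 windows of the 4 genes there was 1 match, the Isl1 letters of Tbx18, which begin 25 bases before the gene start. Of 32851 promoter windows of the same length, 3.33% held the T-box site, 6.36% the Isl1 site, 10.1% the Nkx2-5 site and 9.99% the GATA site. The 2 windows of Tbx1 held none of the letters.

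In control cells the T-box genes covered a wide range of levels. Per length, Tbx20 stood highest at 18.4 and 19.3 RPKM, followed by Tbx3 at 14.4 and 12.4, Tbx4 at 8.23 and 8.24, Tbx2 at 6.90 and 6.93 and Tbx5 at 1.86 and 1.93 RPKM. Tbx15 (0.25 and 0.24 RPKM) and Tbx1 (0.24 and 0.23) overlapped, and Tbx18 came last at 0.04 and 0.03 RPKM. All other neighbours in this order were apart in both libraries. Tbx20 lay above 80.3% of the genes tested in control and Tbx5 above 24.7%, so that the best known T-box gene of the heart was among the less abundant transcripts of these progenitors.

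In Isl1_KO cells the order was different. Tbx3 stood highest at 18.7 and 32.0 RPKM, above Tbx20 at 14.6 and 13.1 RPKM. Tbx2 came next at 5.64 and 6.56 RPKM, then Tbx4 at 3.56 and 0.98, Tbx15 at 0.49 and 0.40 and Tbx5 at 0.14 and 0.17 RPKM. Tbx1 was listed at 0 in both libraries, Tbx18 at 0.02 and 0, and these last 2 overlapped. The levels of the other neighbours did not overlap, although the 2 libraries of Tbx3 and of Tbx4 lay far apart.

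**Figure D1:**
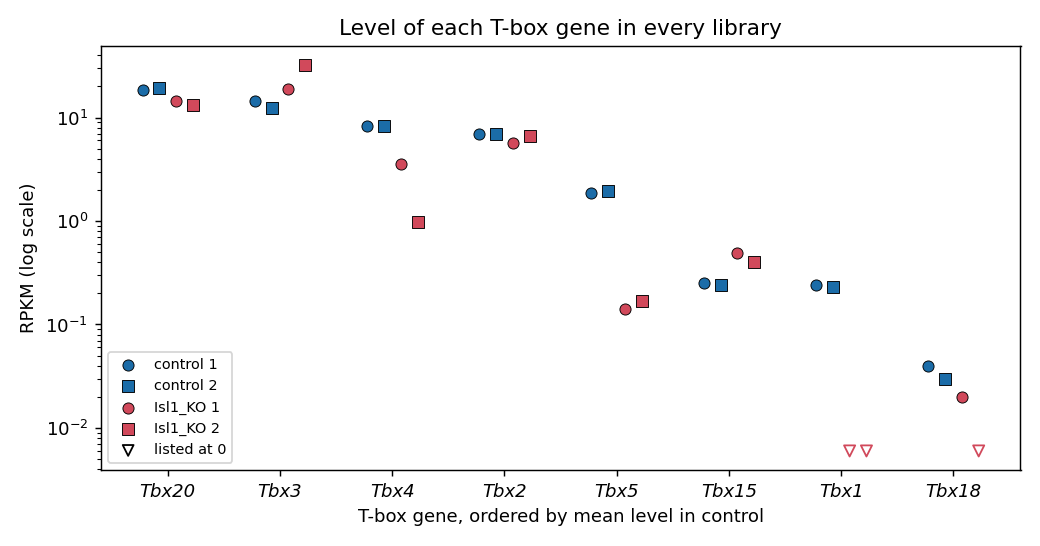
RPKM on a log axis of the 8 T-box genes in each of the 4 libraries (blue control, red Isl1_KO, circles replicate 1, squares replicate 2), with open triangles for values listed at 0. Tbx5 dropped from 1.86 and 1.93 to 0.14 and 0.17 RPKM, while Tbx3 was at 14.4 and 12.4 in control and at 18.7 and 32.0 RPKM in Isl1_KO.

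The summed level of the 8 genes was 50.4 and 49.2 RPKM in control and 43.2 and 53.2 RPKM in Isl1_KO, so the Isl1_KO libraries lay on either side of control. Its make-up was not the same. Tbx3 made up 28.7% and 25.1% of the sum in control and 43.4% and 60.1% in Isl1_KO. The share of Tbx20 was 36.6% and 39.1% in control and 33.8% and 24.7% in Isl1_KO, and that of Tbx4 was 16.3% and 16.7% in control and 8.25% and 1.84% in Isl1_KO. Tbx5 held 3.69% and 3.92% in control and 0.324% and 0.319% in Isl1_KO, and Tbx2 between 12.3% and 14.1% in every library. Within a library, where scaling between libraries plays no part, Tbx3 over Tbx20 was 0.783 and 0.642 in control and 1.28 and 2.44 in Isl1_KO. The ratio of Tbx5 to Tbx20 was 0.101 and 0.100 in control and 0.00960 and 0.0130 in Isl1_KO. With 2 libraries against 2, an exact two-sided permutation test of such a ratio cannot go below 0.333, so none was run.

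**Figure D2:**
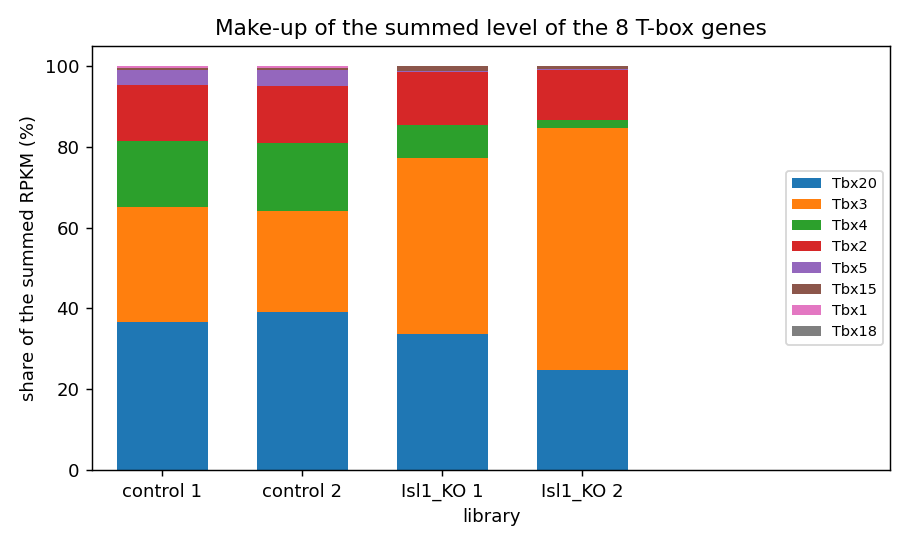
Stacked bars of the share, in percent, that each T-box gene takes of the summed RPKM of the 8 genes, for each library. The Tbx3 segment covers 28.7% and 25.1% in control against 43.4% and 60.1% in Isl1_KO, and the Tbx4 segment shrinks from 16.3% and 16.7% to 8.25% and 1.84%.

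Of the 8 genes, 6 passed the filter on low counts and were tested, and 1 of them, Tbx5, passed the adjusted threshold and fell in Isl1_KO. Among all genes tested, 1.94% were called lower and 0.503% higher. The groups did not overlap for any of the 6, with 4 lower and 2 higher, but this was so for 58.1% of all genes tested (29.0% lower and 29.1% higher), a share against which the 6 of 6 has to be read. Without adjustment 5 of the 6 had p under 0.05, against 23.3% of all genes tested. The median log2 fold change of the 6 was -0.34, beside -0.0027 for all genes tested. A Wald test of DESeq2 on the same genes called 3 of the 6, Tbx5 and Tbx20 lower and Tbx3 higher, where it called 4.73% of all genes (3.41% lower and 1.31% higher). Leaving out control replicate 1 or 2 left 0 of the T-box genes called in edgeR, leaving out Isl1_KO replicate 1 gave 4 (Tbx3, Tbx4, Tbx5 and Tbx20), and leaving out Isl1_KO replicate 2 gave all 6. The same fits called 0.207%, 0.221%, 49.2% and 32.5% of all genes tested, so the higher counts of T-box genes stand beside a raised background. The criteria of the study, an absolute log2 fold change over 0.58 and an unadjusted p under 0.05 in DESeq2, were met by 4 of the 8 genes, Tbx1, Tbx4 and Tbx5 lower and Tbx3 higher, and by 5.89% of the 16855 genes with a count.

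**Figure D3:**
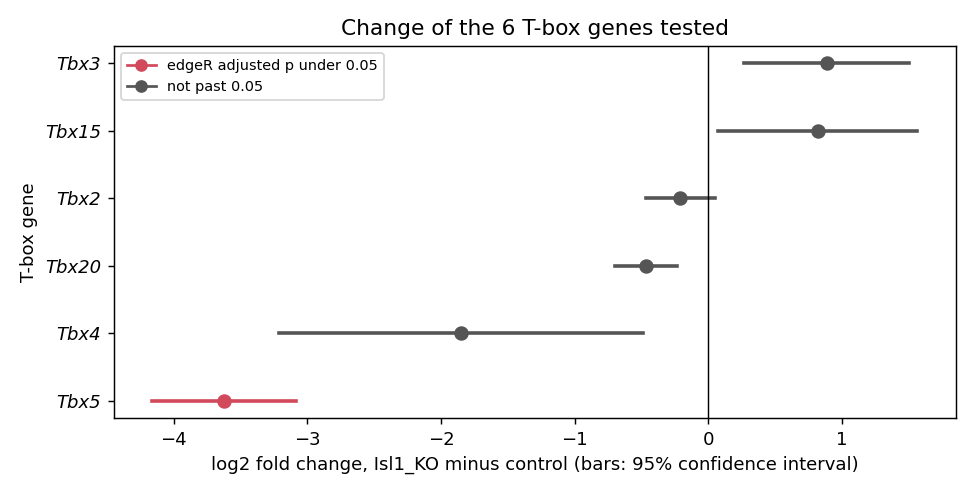
Log2 fold change, Isl1_KO minus control, of the 6 T-box genes tested, with 95% confidence intervals from edgeR and red for an adjusted p under 0.05. Tbx5 lies at -3.62 with an interval from -4.16 to -3.08, and the interval of Tbx2, from -0.46 to 0.049, is the only one that includes 0. The SE of Tbx5 was 0.212 in edgeR and 0.450 in DESeq2.

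Tbx5 (chr5:120284672-120335227 on mm9, plus strand), the activator that is required for the atria and the left ventricle, had 114 and 123 counts in control and 13 in each of the deeper Isl1_KO libraries. This was 12.9 and 13.5 CPM in control and 0.999 and 1.13 CPM in Isl1_KO. The groups were far apart, and within each group the libraries differed by less than counting error, with a ratio of replicate 2 to replicate 1 of 1.13 in Isl1_KO (exact 95% interval 0.482 to 2.64). The mean of Tbx5 fell from 13.2 ± 0.366 CPM in control to 1.06 ± 0.0909 CPM (SD, n = 2 each). This 12.3-fold decrease, -3.62 on the log2 scale with SE 0.212, had an adjusted p of 0.00375 in edgeR. DESeq2 gave -3.64 with a larger SE of 0.450. At 13 counts the counting error alone is 27.7% of the value, so the edgeR SE may be too small. By the edgeR fold change, Tbx5 had the 61st largest change in size of all genes tested. Without either control library the fold change was -3.65 or -3.59, and the adjusted p of 0.0736 or 0.0643 missed the threshold. The cardiomyocyte markers fell with it, and their part in the result was not tested. In a bulk sample, fewer cells that express a gene and less RNA per cell cannot be told apart.

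The genes whose profile over the 4 libraries was most like that of Tbx5 were Nebl, Myl3 and Hcn4. Likeness was the root mean square difference of centred log2 CPM over the 4 libraries, compared with 10763 other genes, and it was 0.139, 0.142 and 0.155 for these genes. Nebl encodes nebulette of the cardiac Z-disc, Myl3 a ventricular myosin light chain and Hcn4 the pacemaker channel of the sinus node. Hcn4 had 155 and 159 counts in control and 14 in each Isl1_KO library. Each of the 3 was lower in both Isl1_KO libraries, with log2 fold changes of -3.87 for Nebl, -3.57 for Myl3 and -3.92 for Hcn4. With 4 libraries in 2 groups, this likeness rests mainly on the size of the difference between the groups.

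Tbx20 (chr9:24527648-24578746 on mm9, minus strand), which is expressed throughout the early heart and is needed for its growth, had 1852 and 2006 counts in control libraries, against 2167 and 1662 in Isl1_KO. Scaled by library size, it was at 210 and 220 CPM in control and at 167 and 144 CPM in Isl1_KO. Both Isl1_KO libraries were below both control libraries, by a modest step. The group means were 215 ± 6.55 and 155 ± 15.8 CPM (SD, n = 2 each). This was -0.47 on the log2 scale, with SE 0.0907 and a 95% interval from -0.70 to -0.24. It did not pass edgeR's test over all genes (adjusted p 0.0728) and passed that of DESeq2 (adjusted p 0.0208). The table holds 3 entries for Tbx20, of 1418, 1792 and 6426 bases. The shorter entries took 21.0% to 25.3% of the counts of the long one in every library, and in a fit with all entries their log2 fold changes were -0.56 and -0.58 beside -0.46 for the long entry. Reads in shared exons are counted for each entry, so these values are not independent.

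Tbx3 (chr5:120120678-120134733 on mm9, plus strand), a repressor of the chamber programme in the nodes and the atrioventricular bundle, had 1076 and 956 counts in control libraries, against 2065 and 3005 in Isl1_KO. Its level was 122 and 105 CPM in control and 159 and 261 CPM in Isl1_KO. Both Isl1_KO libraries were above both control libraries, and they were also far from each other. Replicate 2 over replicate 1 was 1.64 in Isl1_KO (exact 95% interval 1.55 to 1.74), beyond counting error, and 0.856 in control (0.784 to 0.935). The log2 fold change was 0.89 (SE 0.244, 95% interval 0.27 to 1.51), with an edgeR adjusted p of 0.127 and a DESeq2 adjusted p of 0.00480. Relative to the control mean the log2 ratio was 0.49 in Isl1_KO replicate 1 and 1.20 in replicate 2. The entries of 4631 and 4767 bases held nearly the same reads, 99.6% to 100.2% of each other. An exon of Tbx3 overlaps Gm2301, a transcript on the opposite strand, and since both strands were counted together their reads cannot be told apart.

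Tbx2 (chr11:85646053-85655450 on mm9, plus strand), the close relative of Tbx3 that represses chamber genes in the atrioventricular canal, had 383 and 399 counts in control libraries, against 464 and 459 in Isl1_KO. Its level was 43.5 and 43.7 CPM in control and 35.7 and 39.8 CPM in Isl1_KO. The difference was small, -0.21 on the log2 scale (SE 0.101), and had an adjusted p of 0.291 in edgeR. The 95% interval of -0.46 to 0.049 leaves out a change of 1.5-fold in either direction. The ratio of Tbx3 to Tbx2 within a library was 2.09 and 1.78 in control and 3.32 and 4.88 in Isl1_KO.

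Tbx4 (chr11:85699924-85729599 on mm9, plus strand), the T-box gene of the hindlimb and the allantois, had 386 and 401 counts in control libraries, against 247 and 58 in Isl1_KO. Its level was 43.8 and 43.9 CPM in control and 19.0 and 5.03 CPM in Isl1_KO. The control libraries were the same within counting error, whereas replicate 2 over replicate 1 was 0.265 in Isl1_KO (exact 95% interval 0.196 to 0.354). The control mean was 43.9 ± 0.0430 and the Isl1_KO mean 12.0 ± 9.87 CPM (SD, n = 2 each). This was -1.85 on the log2 scale, with SE 0.536 and a 95% interval of -3.21 to -0.49. It did not pass the threshold, with an adjusted p of 0.137 in edgeR and 0.268 in DESeq2. Relative to the control mean the log2 ratio was -1.21 in Isl1_KO replicate 1 and -3.12 in replicate 2, so its size depended on the library while its sign did not. Pitx1, a hindlimb homeobox gene, was uneven in the same way, with 617 and 632 counts in control and 530 and 80 in Isl1_KO. So were the summed fibroblast markers and the globin genes Hbb-bh1 and Hba-x. The blood markers Tal1, Runx1 and Gata1 were not lower in Isl1_KO replicate 2 than in replicate 1. Itga2b (20.1 CPM in Isl1_KO replicate 1 and 18.7 in replicate 2) and Klf1 (4.38 and 3.56 CPM) were somewhat lower in replicate 2. The part of these genes in the result was not tested.

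Tbx15 (chr3:99044304-99158182 on mm9, plus strand), known from the dermis and the skeleton, had 14 counts in each control library and 40 and 28 in Isl1_KO. At 1.59 and 1.53 CPM in control against 3.08 and 2.43 CPM in Isl1_KO it was higher in both Isl1_KO libraries. On the log2 scale the difference was 0.82 with SE 0.294 (adjusted p 0.190 in edgeR and 0.695 in DESeq2). At 14 counts the counting error alone is 26.7% of the value, and the 95% interval of 0.072 to 1.57 is wide.

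Tbx1 and Tbx18 were below the filter and were not tested. Tbx1 (chr16:18581806-18588113 on mm9, minus strand), the second heart field and pharyngeal factor that is deleted in DiGeorge syndrome, had 7 counts in each control library and 0 in both Isl1_KO libraries. The 3 entries of Tbx1 in the table had the same counts. Its 0.780 CPM in control was 6.38-fold above a floor of 3 counts over the Isl1_KO group, or 0.122 CPM. This ratio is not a lower bound. It leaves out the counting error of control, 37.8% of the value in each library, and the spread between clones. Fitted without the filter, its adjusted p in edgeR was 0.0800. Tbx18 (chr9:87597635-87626095 on mm9, minus strand), the gene of the sinus horns and the epicardium, had 3 and 2 counts in control libraries, against 2 and 0 in Isl1_KO. Its ratio of Isl1_KO to control was 0.293 with an exact 95% interval of 0.0279 to 1.79, so that a difference was not detectable at this depth.

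The remaining T-box family was read in the same way. Of 9 other family members, 5 were tested and 0 passed in edgeR or in DESeq2, and 1 had an unadjusted p under 0.05 in edgeR. Mga, which joins a T-box with a MAX-binding region and is broadly expressed, was the most abundant, at 12.6 and 12.9 RPKM in control and 11.9 and 14.9 in Isl1_KO. T and Eomes, both factors of the primitive streak, stood far higher in Isl1_KO replicate 2 than in the other libraries. T had 111 and 110 counts in control, 99 in Isl1_KO replicate 1 and 468 in replicate 2, and Eomes had 121, 111, 237 and 1015. Their log2 fold changes of 0.96 (SE 0.750) and 2.03 (SE 0.750) had edgeR adjusted p of 0.486 and 0.196. Tbr1 and Tbx6 had 7 to 18 counts in each library, and Tbx10, Tbx19, Tbx21 and Tbx22 had at most 3. Isl1_KO replicate 2, which had the most T and Eomes, was also the library with the most Tbx3 and the least Tbx4.

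**Figure D4:**
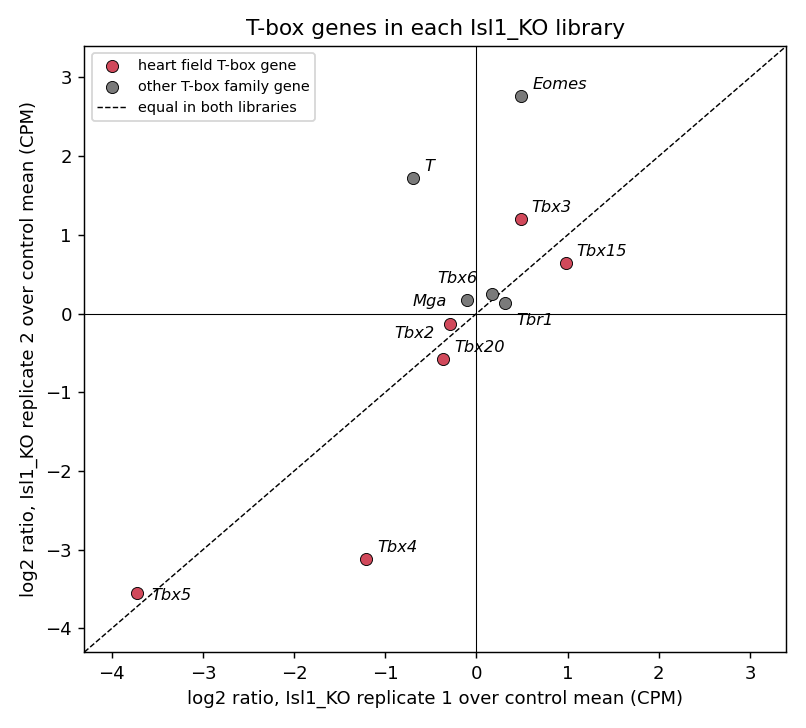
Log2 ratio of CPM to the control mean in Isl1_KO replicate 1 (horizontal) and replicate 2 (vertical), for the 6 heart field T-box genes tested (red) and 5 other family members (grey), with a dashed line where both libraries are equal. Tbx5 lies near the line at -3.72 and -3.55, while Tbx4 (-1.21 and -3.12), Tbx3 (0.49 and 1.20), Eomes and T lie away from it.

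Of the 8 genes, Tbx2 with Tbx4 and Tbx3 with Tbx5 are close neighbours, and the genes around each locus were read beside them. Tbx3 and Tbx5 lie 149.9 kb apart on chromosome 5, in the same orientation, with log2 fold changes of 0.89, which did not pass in edgeR (adjusted p 0.127), and -3.62, which did. Tbx2 and Tbx4 lie 44.5 kb apart on chromosome 11 with log2 fold changes of -0.21 and -1.85, neither of which passed. The nearest protein-coding genes on either side of the 8 loci gave 13 genes outside the family, of which 9 were tested. Of these, 0 passed in edgeR or in DESeq2, and their log2 fold changes ranged from -0.28 to 0.39. The 1 with an unadjusted p under 0.05 in edgeR was Rbm19, the next gene after Tbx5, with a mean of 62.2 ± 0.670 CPM for control and of 81.3 ± 8.10 CPM for Isl1_KO (SD, n = 2 each, adjusted p 0.105 in edgeR). Med13l, on the far side of Tbx3, had a log2 fold change of -0.10, and Bcas3 and Brip1, which flank Tbx2 and Tbx4, had -0.047 and 0.17.

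All 12 cardiac partners of the T-box factors were tested, and 8 were lower and passed in edgeR, against 1.94% of all genes tested. The 8 were Isl1, Nkx2-5, Gata5, Gata6, Mef2c, Hand2, Smarcd3 and Myocd, and 10 of the 12 were below 0. DESeq2 called the same 8. The median log2 fold change of the 12 was -1.43, beside -0.0027 for all genes. Gata6, a zinc finger factor of the heart and the endoderm, fell least among these 8, by 1.02 (SE 0.130) on the log2 scale, and Hand1, the most abundant partner per length, was at 250 and 252 RPKM in control and at 333 and 269 RPKM in Isl1_KO (edgeR adjusted p 0.329). The list includes Isl1, the edited gene, and Nkx2-5, whose own transcript was counted here and whose reporter was the basis of the sort. Isl1, Nkx2-5, Gata6, Mef2c and Hand2 are also the called cardiac progenitor markers, so the partner and marker counts are not separate results. The list was chosen with earlier results of these data known, so its share of called genes is not independent support. Gata5 and Smarcd3 each share an exon position with another protein-coding gene, so that their counts are less certain.

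Of 15 chamber genes that Tbx5 and Tbx20 are known to act on, 11 were tested, with a median of -1.39 and 10 below 0. In edgeR 4 of the 11 were lower and passed, against 1.94% of all genes tested. DESeq2 called 5, adding Atp2a2. Myl7, the atrial myosin light chain, went from 203 and 205 CPM to 3.77 and 4.25 CPM. Ryr2, the calcium release channel, had 824 and 924 counts in the control libraries against 262 and 134, and Pln, which regulates the calcium pump, had 18 and 22 against 3 and 4. Smpx, a small muscle protein, had 18 and 22 counts in control libraries, against 1 and 0 in Isl1_KO. Nppa and Gja5, the textbook targets that Tbx5 activates together with Nkx2-5, were too low to test, with 5 and 6 counts against 3 and 3 for Nppa, and 2 counts in each control library against 2 and 0 for Gja5.

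Of 15 genes linked to Tbx1, 14 were tested, and 2 were lower and passed in edgeR, against 1.94% of all genes tested. DESeq2, which called 4.73% of all genes, called 3 of the 14, adding Foxc2. The median was -0.20, with 11 of the 14 below 0. Foxc1, a forkhead factor of the pharyngeal and head mesoderm, had 148 and 154 counts in the control libraries against 72 and 46 (log2 fold change -1.81, SE 0.202). Fgf8 and Fgf10, the signals usually placed downstream of Tbx1, did not pass in edgeR (adjusted p 0.879 and 0.283). Both were uneven between the Isl1_KO libraries. Fgf8 was at 6.13 and 6.13 CPM in control and at 2.15 and 8.68 CPM in Isl1_KO. Fgf10 was at 45 and 46 CPM in control and at 49 and 114 CPM in Isl1_KO.

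Of 14 genes of the atrioventricular canal and the sinus node, where Tbx2 and Tbx3 act, 13 were tested. Their median was -0.23, with 10 of the 13 below 0. In edgeR 3 were lower and passed, against 1.94% of all genes tested. Besides Hcn4, these were Cacna1d, a pacemaker calcium channel, with 189 and 220 counts in control and 37 and 58 in Isl1_KO, and Tgfb2, a cushion signal, with 360 and 347 CPM in control and 137 and 98.3 CPM in Isl1_KO. DESeq2 called 5 of the 13, adding Msx2 and Has2. Bmp2 and Bmp4, which induce Tbx2 and Tbx3 in the embryo, had log2 fold changes of -0.29 (SE 0.0632) and -0.19 (SE 0.0635) and did not pass in edgeR (adjusted p 0.0876 and 0.172). The 3 genes of this list with positive values were Msx2 at 0.73 (adjusted p 0.0556 in edgeR, called by DESeq2), Gja1 at 0.38 and Msx1 at 0.28, the last 2 called by neither test. Among 10 epicardial and venous pole genes, 8 were tested and 0 passed in edgeR or in DESeq2, while 6 had an unadjusted p under 0.05 in edgeR, beside 23.3% of all genes tested. Of these 6, Sema3d was at 0.71 and the others were below 0. The median of the 8 tested was -0.76. Krt19, the most abundant of the list, was at 54.5 and 51.4 RPKM in control and 42.6 and 37.0 RPKM in Isl1_KO. Of 10 limb field genes, 7 were tested, and 2 were lower and passed in edgeR, against 1.94% of all genes tested. These 2 were Meis1 (-2.45, SE 0.246) and Hand2 (-1.71, SE 0.182), which is also among the cardiac partners. DESeq2 called 3 of the 7, adding Meis2. The median of the 7 was -1.53, with 5 of the 7 below 0.

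**Figure D5:**
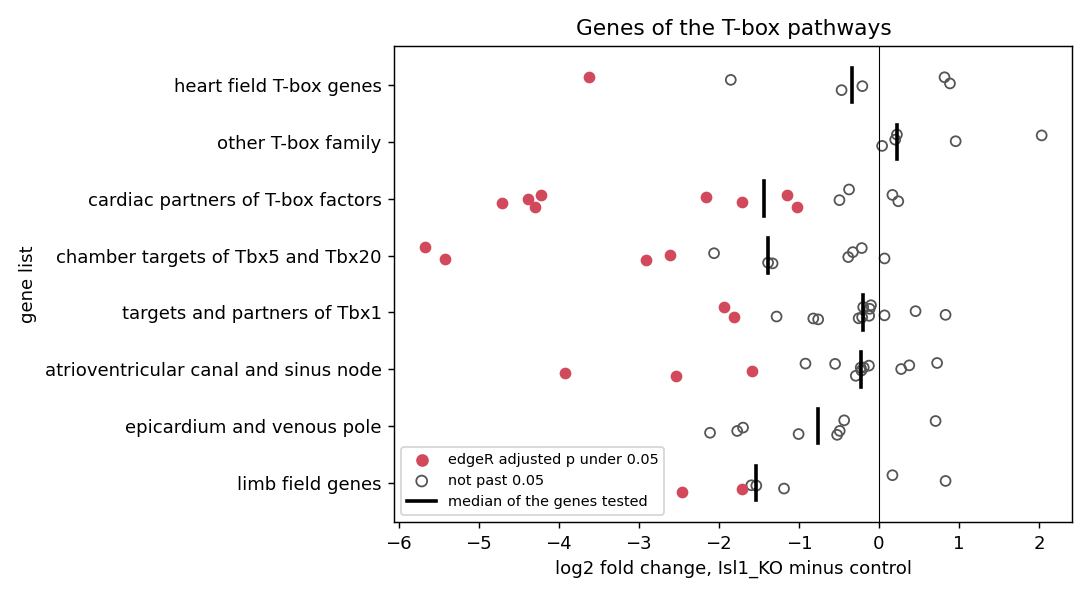
Log2 fold change, Isl1_KO minus control, of the tested genes of the heart field T-box group and of 7 lists of related genes, with red points for an adjusted p under 0.05 in edgeR and a black bar at the median of each list. The medians run from 0.22 for the other T-box family to -1.53 for limb field genes, and all called genes lie below 0.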

How the data were processed

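Sample titles gave each library its group and number. They name a knockout, where the series design text has a knockdown. The authors mapped reads to mm9 with STAR and counted exonic reads per RefSeq transcript with HOMER on both strands, and the deposited counts are these whole reads. Deposited RPKM values come from edgeR, run by the authors. The log2 fold changes, score (Wald statistic), p-value and signal (mean scaled count) columns deposited by the authors hold their own DESeq2 comparison and were not used. Tool versions were not given in the sources used here.

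Of 31507 entries, 1 per symbol was kept, with 57.0% of the counts, giving 8821517 to 13186109 counts per library. At this depth a floor of 3 counts is 0.228 to 0.340 CPM in 1 library. Floors and intervals from counts cover counting error only. The test was edgeR 4.0.16 (TMM factors, filterByExpr, quasi-likelihood F test, two-sided, no covariate) in R 4.3.3, Benjamini-Hochberg adjusted over 12715 genes with a threshold of 0.05. It was checked on simulated counts with the same spread in both groups, so the check does not cover the unequal spread of these libraries. DESeq2 1.42.0 was an alternative, together with other filters, size factors, a replicate block, all entries, a test against 1.5-fold and the omission of each library. The paper describes the replicates as different clones, while the sample titles give only a replicate number. The p-values rest on the spread between these libraries, which edgeR estimates partly from all genes (total degrees of freedom 5.22, residual 2). The control pair differed little more than counting error, so its SDs may not show the spread between clones. Positions are from GENCODE vM1 on NCBIM37, the assembly of mm9, and promoter windows from RefSeq on GRCm38.p6. Tables were handled in Python 3.11.15 (numpy 2.4.6, pandas 2.3.3), exact intervals in scipy 1.17.1 and plots in matplotlib 3.10.9.

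The members and lists were chosen with earlier results of these data known. Genes named were the 8 T-box genes, Isl1, Nkx2-5, called genes of each list or else the most abundant, other T-box genes with at least 10 counts in a library, chromosomal neighbours, and the 3 genes most like each called member among genes whose mean log2 CPM reached 2. Tbx10, Tbx19, Tbx21, Tbx22, Hand1, Nppa, Gja5, Fgf8, Fgf10, Bmp2, Bmp4, Msx1, Msx2, Gja1 and Sema3d were named after their values were seen. So were Pitx1, Hbb-bh1, Hba-x, Tal1, Klf1, Gata1, Runx1, Itga2b, Dcn, Prrx1, Atp2a2, Kdr, Mesp1, Tdgf1, Pou5f1, Nanog, Foxc2, Meis2 and Has2. Of the genes that the rule selects, 1 is not reported here.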

Additional observations from a re-analysis of the deposited data

How the results depend on the processing

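None of the 6 tested T-box genes changed sign under any of the 12 alternatives. Tbx5 ranged from -3.71 to -3.53 and lost its call only when a control library was left out. The range with 1 library left out was 0.49 to 1.20 for Tbx3, -3.12 to -1.21 for Tbx4, -0.58 to -0.37 for Tbx20, -0.29 to -0.13 for Tbx2 and 0.64 to 0.97 for Tbx15. The 1 T-box gene called became 3 with DESeq2 and 4 with the criteria of the study, and stayed at 1 in 6 other fits with all libraries. Leaving out 1 library gave 0 to 6. The 311 genes called became 601 with DESeq2, 993 with the criteria of the study, 492 without a filter and 92 against a 1.5-fold change, and 27 to 6350 with 1 library left out. The 18 genes called in the lists became 30 with the criteria of the study, 10 against 1.5-fold and 5 to 59 with 1 library left out (5 without either control library, 59 and 49 without Isl1_KO replicate 1 and 2). With 1 library left in a group, its spread is assumed to be that of the other group, and the control pair was much closer than the Isl1_KO pair, so the high counts come from fits that rest on the control pair. A fit that took the replicate number as a block called 454 genes, 1 of them a T-box gene, and in it Tbx4 was at -2.04 (edgeR adjusted p 0.0557). Deviations of libraries that share a number were uncorrelated (r 0.0144 over 12715 genes), and the labels give the clones no pairing. Depth limited Tbx1, Tbx15 and Tbx18, with at most 40 counts in a library.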
